A study of Mus musculus with 6 samples.

Results

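The genes described here are Mest, Sfrp5, Bmp3, Npr3 and Nkd1, 5 genes known to vary with the expansion of fat pads among inbred mice, measured in epididymal white fat. They were chosen by name, and all probe sets that the platform annotation gives to 1 of these symbols were taken. That found 10 probe sets of 4 genes, among 18193 genes with a probe set of a single symbol. Mest had 1 probe set, Sfrp5 had 2, Npr3 had 3 and Nkd1 had 4, while Bmp3 was not analysed here because the annotation used pairs no probe set with it. Of the 10 probe sets, 8 passed the filter on low values, a mean of at least 5.22 log2 units over the 6 arrays, and the other 2, both of Nkd1, are given as measured.

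The fat came from male C57BL/6 mice aged 16 weeks, fed chow and killed without fasting, and was read on Affymetrix arrays that detect the 3' ends of transcripts. Control mice were FTO flox/flox, so that they carried floxed Fto alleles and no Cre by their label. AFO mice were Adiponectin-cre FTO flox/flox, which adds a Cre recombinase driven by adiponectin sequence and so active in fat cells, while the other cells of the pad keep their floxed alleles. The Fto enzyme takes methyl marks off RNA. Each genotype was represented by 3 arrays, each of an RNA pool numbered 1 to 3, and how many mice made a pool is not given in the sources used here. The values are log2 expression levels made by RMA, a method that gives all arrays nearly the same distribution (array medians from 5.35 to 5.43). With 3 arrays a group, their number limits how precise any difference can be.

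Mest encodes a protein of the alpha/beta hydrolase family, is expressed from the paternal allele, and is known as a transcript that rises in white fat when the pad expands. Sfrp5 encodes a secreted frizzled-related protein that binds Wnt ligands outside the cell, and Nkd1 a cytoplasmic protein that binds Dishevelled and dampens Wnt signalling. Bmp3 encodes an atypical bone morphogenetic protein that opposes other members of its family. Npr3 encodes the clearance receptor for natriuretic peptides, which removes peptides that would otherwise signal through cyclic GMP to start lipolysis.

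The sequences before the transcription starts of Mest, Npr3 and Sfrp5 are shown because these genes varied most over the arrays, Mest and Npr3 in one direction and Sfrp5 in the other. Each is the run of 250 bases upstream of a RefSeq start in GRCm38.p6, 5' to 3' on the gene's strand. For Mest, for which the table lists 3 starts, it is the window of the second (chr6:30737800-30738049, plus strand). For Npr3 it is chr15:11907372-11907621 and for Sfrp5 chr19:42202253-42202502, both on the minus strand. Capitals mark matches, on either strand, to any of 5 motifs. These were the GC box, spelled GGGCGG, the promoter element for the TATA-binding protein, spelled TATAAA, and the binding sequence of nuclear factor Y, spelled CCAAT. Also searched were the half-site of nuclear receptors, spelled AGGTCA, and the core of sites for the Wnt-driven TCF/LEF factors, spelled CTTTGA.
Mest: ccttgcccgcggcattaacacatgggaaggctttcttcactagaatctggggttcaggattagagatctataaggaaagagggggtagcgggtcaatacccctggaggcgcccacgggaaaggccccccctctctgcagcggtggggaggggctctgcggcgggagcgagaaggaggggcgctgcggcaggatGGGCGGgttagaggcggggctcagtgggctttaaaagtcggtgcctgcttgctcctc
Npr3: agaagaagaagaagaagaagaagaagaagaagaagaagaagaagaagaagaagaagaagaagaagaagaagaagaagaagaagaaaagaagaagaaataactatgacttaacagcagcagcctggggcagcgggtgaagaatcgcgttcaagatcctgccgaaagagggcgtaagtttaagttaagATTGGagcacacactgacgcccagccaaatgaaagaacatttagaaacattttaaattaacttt
Sfrp5: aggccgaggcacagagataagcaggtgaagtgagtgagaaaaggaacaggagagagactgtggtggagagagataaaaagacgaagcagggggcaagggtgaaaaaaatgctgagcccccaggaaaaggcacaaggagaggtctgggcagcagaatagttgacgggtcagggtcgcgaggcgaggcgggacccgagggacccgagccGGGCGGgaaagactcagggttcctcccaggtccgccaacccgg
The Mest and Sfrp5 windows each held 1 GC box, found in 32.7% of 32851 such windows of the mouse RefSeq table. The Npr3 window held 1 nuclear factor Y sequence, read on the opposite strand, found in 33.8% of windows. The letters of the other 3 motifs were not in these windows. The TATA element occurs in 12.4% of all windows, the nuclear receptor half-site in 14.0% and the TCF/LEF core in 13.8%. The Mest window had 14 CpG dinucleotides, a count that 29.4% of windows reach, the Sfrp5 window 13 (31.5%) and the Npr3 window 6 (50.4%). The Npr3 window begins in a long purine repeat. A match is a run of letters and shows no binding.

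The arrays separated first into pool 2 and the rest, and this bears on every value that follows. On the first principal component of the 20967 probe sets past the filter, which held 64.8% of the variance, control pool 2 lay at 44.76 and AFO pool 2 at 67.22, while the other 4 arrays lay between -32.77 and -24.57. In the pool 2 arrays the summed level of 6 of 7 B cell markers was 2081 and 3274 linear units against 205 to 322 in the other 4. That of 10 mesothelial markers was 866 and 314 against 2779 to 3265. Of these, the keratins Krt18 and Krt8 did not follow the sum in control fat. In control pools 1, 2 and 3 Krt18 read 7.06, 8.02 and 7.06 log2 units and Krt8 7.78, 7.53 and 6.98. Both were low in AFO pool 2 (5.73 and 4.63). The 3'-to-5' difference of the beta-actin control probe sets, a sign of RNA quality, ran from 0.726 to 0.948 in 5 arrays and was 1.33 in AFO pool 3. That of the Gapdh control probe sets ran from -0.12 to 0.19 in the same 5 arrays and was 0.38 in AFO pool 3. Among 10 of the 12 fat cell markers listed, all past the filter, the summed level was 62411 to 67053 in control and 52835 to 68229 in AFO fat. Fat cell markers were thus high in each array. They do not tell fat depots apart, so the labelled depot was not checked by them. The mesothelial marker Wt1 read 4.55 and 4.38 log2 units in pool 2 (control, then AFO) and 7.57 to 7.92 in the other 4 arrays. Whether all pools hold like tissue was not tested.

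Mest varied more between RNA pools than between genotypes. Its probe set (1423294_at) read 9.21, 6.93 and 7.69 in control pools 1, 2 and 3, and 9.11, 6.13 and 7.68 in AFO pools 1, 2 and 3. Pool 1 was highest and pool 2 lowest in each genotype, and the genotypes overlapped. The mean was 7.95 ± 1.16 in control fat and 7.64 ± 1.49 in AFO fat (SD, n = 3), a difference of -0.31 (AFO minus control; SE 0.86, 95% interval -2.37 to 1.76). By limma over all 12513 tested genes this did not pass, with an adjusted p of 1. Between arrays of equal pool number the difference was -0.10 in pool 1, -0.80 in pool 2 and -0.02 in pool 3, so most of it came from pool 2. Without AFO pool 2 the difference turned to 0.45, without control pool 1 to 0.32, and without both pool 2 arrays it was -0.06.

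The spread of Mest over the arrays was large among the tested genes. Its range was 3.08 log2 units, a size reached by 1.32% of the tested genes, whose median range was 0.57. This spread was not only that of the pool 2 arrays. Among the other 4 arrays Mest ranged over 1.53 log2 units, reached by 1.28% of genes, and the pool 1 arrays exceeded the pool 3 arrays by 1.52 in control and 1.43 in AFO fat. The mean of pool 1 minus that of pool 3 was 1.47, and 28 of 12513 genes (0.224%) had a difference of that size in either direction. Mest was also among the 0.0799% of genes whose pool 1 arrays both lay at least 1 log2 unit above both pool 3 arrays. No test was made between pools, which are not groups of the study.

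Npr3, the clearance receptor, was highest in pool 1 of each genotype, as Mest was. Its brightest probe set (1435184_at) read 9.51, 8.07 and 8.47 in control pools 1, 2 and 3 and 8.86, 7.0005 and 8.44 in the corresponding AFO pools. AFO was the lower of each equal-numbered pair, though the pools of 1 genotype spread over those of the other. The means were 8.68 ± 0.75 in control and 8.10 ± 0.98 in AFO fat (SD, n = 3), which leaves a difference of -0.58 (SE 0.57, 95% interval -1.94 to 0.78, limma adjusted p of 1). Within pools 1, 2 and 3 it was -0.65, -1.07 and -0.03. Without AFO pool 2 the difference was -0.03, without control pool 1 -0.17, and without both pool 2 arrays -0.34.

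The other Npr3 probe sets gave the same sign between genotypes. The second (1448024_at) read 7.35, 5.97 and 6.64 in control pools 1, 2 and 3 and 6.85, 5.22 and 5.77 in AFO pools, a difference of -0.71 (SE 0.49). Here the AFO value was lower by a like amount in each pool, -0.50, -0.75 and -0.87. The third (1450286_at) stood at 6.49, 5.15 and 5.60 in the control arrays and at 6.01, 5.17 and 4.84 in the AFO arrays, a difference of -0.41 (SE 0.41). For this probe set pool 2 did not differ between genotypes by more than 0.016, and pool 3 was the lowest AFO array. Tested with all 34945 single-symbol probe sets, neither passed (limma adjusted p = 0.999956 for both). The brightest probe set had its smallest difference in pool 3, where the other probe sets had their largest, so the probe sets disagreed on that pool. AFO pool 3 was also the array with the largest 3'-to-5' differences, and a part of RNA quality in this disagreement was not tested.

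Sfrp5, the secreted Wnt antagonist, ran the other way across pools and was highest in pool 2. Its brighter probe set (1423023_at) read 6.22, 6.73 and 6.07 in control pools 1, 2 and 3 and 6.25, 6.90 and 6.16 in AFO pools. Only the pool 2 arrays stood out, and the other 4 lay within 0.18 log2 units of each other. The genotype means were 6.34 ± 0.34 and 6.44 ± 0.40 (SD, n = 3) for control and AFO, a difference of 0.10 (SE 0.26, 95% interval -0.54 to 0.73, limma adjusted p of 1). The second probe set (1436075_at) read 6.10, 6.75 and 5.58 in control and 6.25, 6.77 and 5.42 in AFO fat, with the same order of pools in each genotype and a difference of 0.0028 (SE 0.41). The sign of the brighter probe set's difference turned without AFO pool 2 (-0.13) and without control pool 3 (-0.03).

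Nkd1, which acts on Dishevelled inside the cell, was dim, and its probe sets differed in how much they varied. Its brightest probe set (1440446_at) read 5.48, 5.49 and 5.23 in control pools 1, 2 and 3 and 5.42, 5.33 and 5.37 in AFO pools. This probe set was nearly flat, with a range of 0.26 that 91.8% of the tested genes reached. The difference was -0.02 (SE 0.13, 95% interval -0.34 to 0.29, limma adjusted p of 1). A second probe set past the filter (1417278_a_at) read 5.56, 4.996 and 5.24 in control and 5.70, 4.95 and 5.54 in AFO fat, a difference of 0.13 (SE 0.25). It ranged over 0.76 log2 units and, unlike the brightest, had the order of pools seen in Mest, with pool 1 highest and pool 2 lowest in each genotype. The 2 probe sets below the filter differed by -0.0060 (1429507_at, all arrays from 4.99 to 5.30) and -0.13 (1429506_at, from 4.43 to 5.20). Because RMA draws low signals together, a difference of so dim a gene can be understated, and the sign of the brightest probe set turned under several settings.

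**Figure D1:**
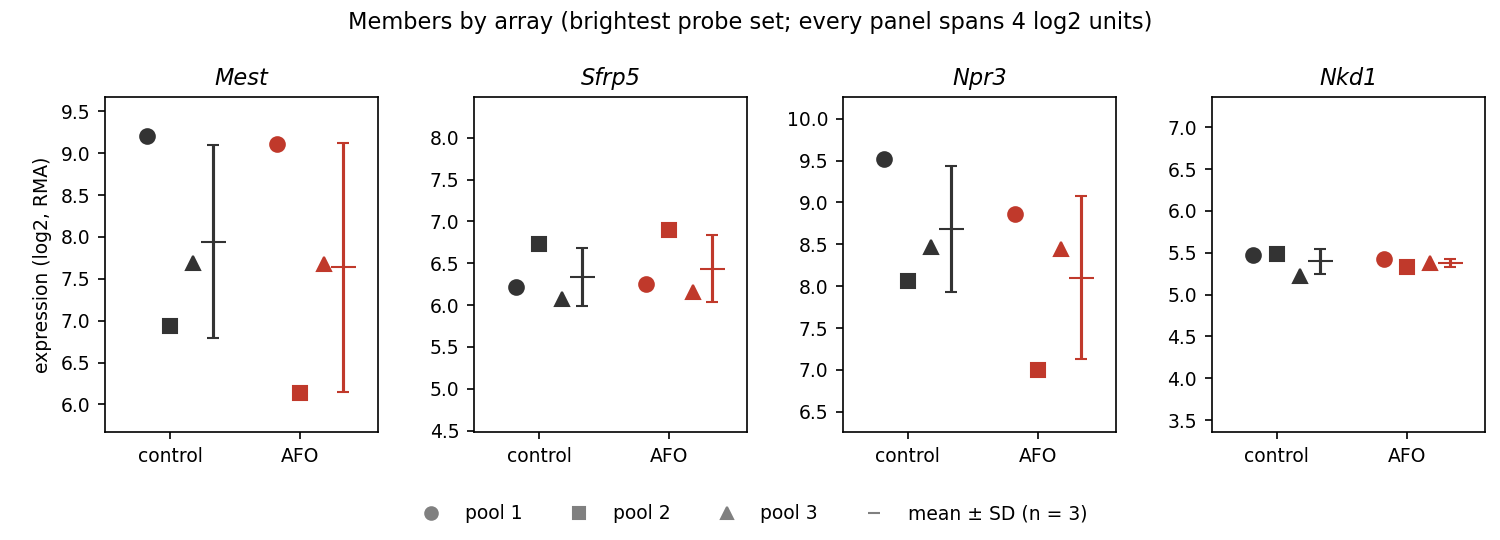
Log2 expression of the brightest probe set of each gene in the 6 arrays, with control in dark grey and AFO in red, a symbol for each pool, and the mean ± SD (n = 3) beside the points. Mest runs from 9.21 in control pool 1 to 6.13 in AFO pool 2, and in each of the 4 genes the genotypes overlap.

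Thus 0 of the 4 genes passed the comparison of genotypes, which asks what differs between fat with and without Cre activity against Fto. By limma without pairing, 0 of the 12513 tested genes (0%) were called at the 0.05 threshold after adjustment. Before adjustment 120 genes (0.959%) were under 0.05, none of them a member. Groups that do not overlap were found in 3.43% of genes and in 0 of the 4 members. With pool number as a block 2 genes passed (0.016%), Bex1 and Mlf1, and again no member. Nor was a member among the 14 genes (0.112%) called without AFO pool 2 or the 74 (0.591%) called without both pool 2 arrays. The block narrowed the errors of the members: Mest differed by -0.31 (SE 0.18) and Npr3 by -0.58 (SE 0.20), with an unadjusted p of 0.0267 for Npr3, in a fit where 4.24% of genes had an unadjusted p under 0.05, and limma adjusted p of 0.990 for both. Read on the brightest probe sets, Mest and Npr3 were lower in AFO fat in 3 of 3 pools, as were 12.9% of the tested genes, and Sfrp5 was higher in 3 of 3, as were 10.6%.

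**Figure D2:**
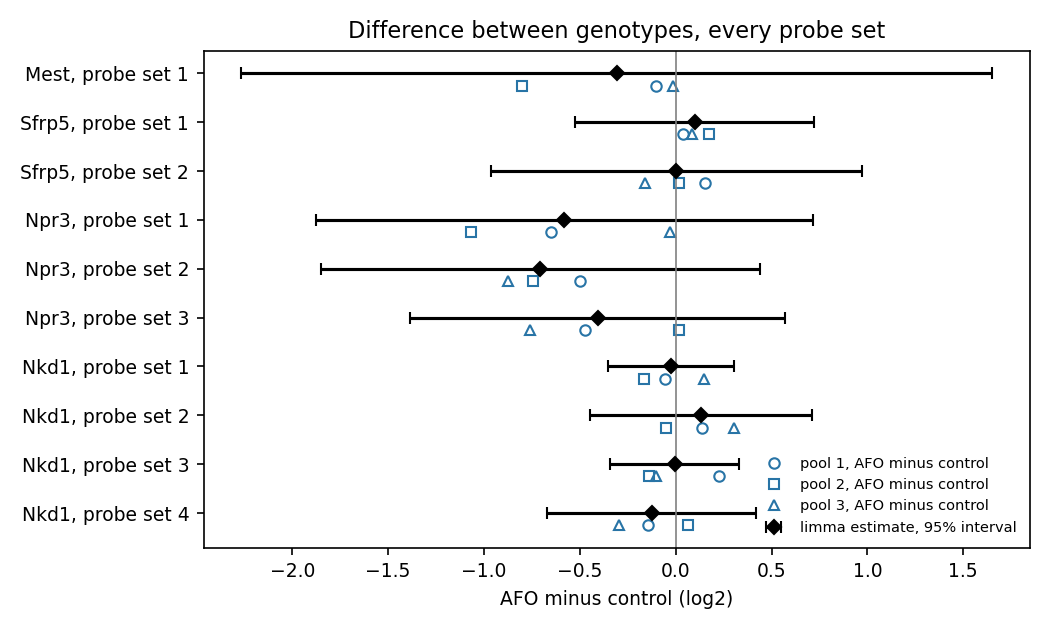
AFO minus control in log2 units for all 10 probe sets, ordered within a gene from the brightest. Diamonds and bars are the limma estimate and its 95% interval in an unpaired fit of all single-symbol probe sets without a filter. Open symbols are the differences within pools 1, 2 and 3. Every interval of this unpaired fit includes 0, and the 3 Npr3 estimates lie between -0.71 and -0.41.

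Across arrays, Mest and Npr3 moved together and Sfrp5 moved against them in pool 2. The order pool 1, then 3, then 2 held in both genotypes for Mest, for 2 of 3 Npr3 probe sets and for 1 of 4 Nkd1 probe sets, and it held in 9.19% of all tested genes. Both Sfrp5 probe sets had the order 2, 1, 3 in both genotypes. Both pool 2 arrays lay above the other 4 in 17.0% of tested genes, as for Sfrp5. They lay below the other 4 in 32.6%, as for Mest and the brightest Npr3 probe set, so neither position was rare. In the other Npr3 probe sets AFO pool 3 lay below control pool 2 (5.77 against 5.97, and 4.84 against 5.15). With each gene centred on its own mean over the 6 arrays, Mest and Npr3 differed by 0.38 log2 units on average, and Npr3 was the 14th nearest of the other tested genes to Mest. Mest and Sfrp5 differed by 1.12 in the same measure and Mest and Nkd1 by 0.89. With the sign of Sfrp5 or of Nkd1 turned, the values were 0.81 and 0.95. The measure grows with the size of a gene's changes, so for the nearly flat Nkd1 it shows no direction. A correlation over the 6 arrays is not given, because the pool 2 arrays form a cluster of their own.

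**Figure D3:**
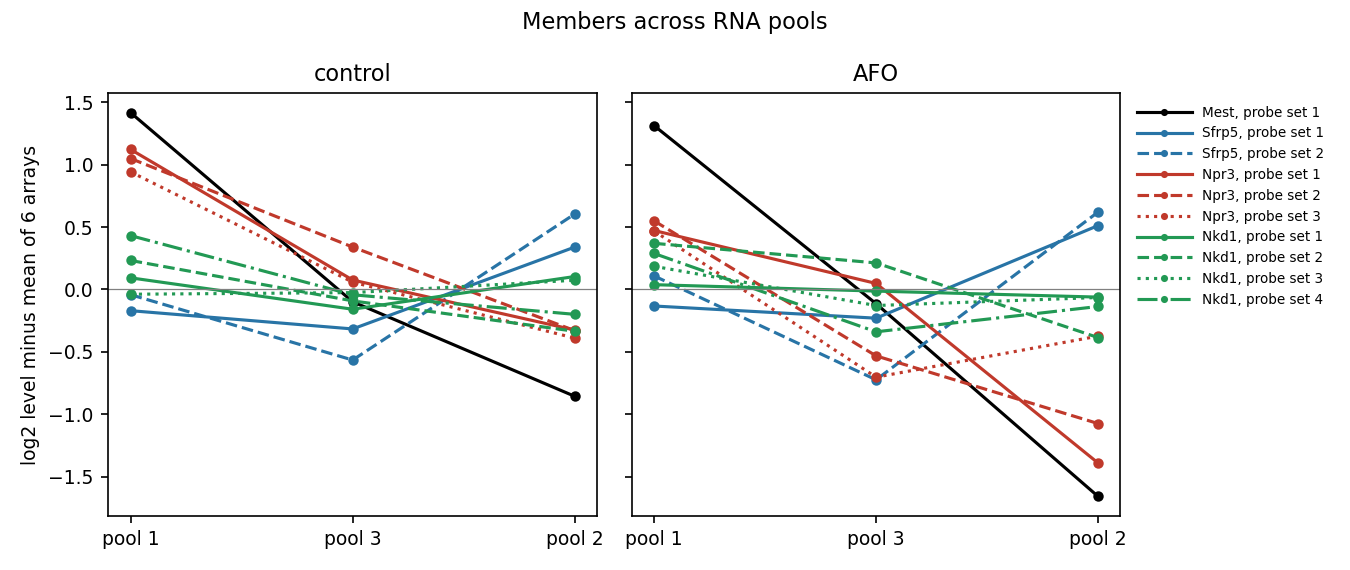
Log2 level of every probe set minus its mean over the 6 arrays, by pool, in control (left) and AFO fat (right). Lines only join the values of a probe set, and the pools are set in the order 1, 3, 2. Mest and Npr3 lie above their mean in pool 1 and below it in pool 2, and Sfrp5 lies highest in pool 2.

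The markers of other cells that moved with these values were read beside them. Pool 2, low in Mest and Npr3 and high in Sfrp5, had lower summed levels of stromal progenitor markers (10 of 12 named; 12751 in control and 14749 in AFO against 20387 to 21821 elsewhere), of 8 endothelial markers (2489 and 2094 against 3527 to 4155) and of the mesothelial markers above. The median log2 level of the stromal markers was also lower in pool 2 (9.03 in control and 9.18 in AFO against 9.71 to 10.04 elsewhere). Within that list Thy1 and Pi16 went the other way. Thy1 read 8.47 and 8.82 log2 units in pool 2 (control, then AFO) against 6.997 to 7.38 elsewhere. Pi16 read 7.9999 and 8.05 against 7.29 to 7.61. Pool 2 was higher in the sums of B cell markers and of T cell markers (7 of 8 named, 1398 and 1620 against 290 to 330). Skeletal muscle markers (10 genes) were highest in pool 2 only within each genotype, at 8023 in control and 39141 in AFO. They summed to 864 and 367 in control pools 1 and 3 and to 8687 and 542 in AFO pools 1 and 3. AFO pool 1 thus exceeded control pool 2. The summed level of fat cell markers in pool 2 was 62411 in control and 52835 in AFO fat, the lowest of each genotype. Their part in the pool 2 values was not tested, and in bulk tissue fewer cells of a type cannot be told from less RNA per cell.

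The same sums were set beside the gap of Mest between pools 1 and 3. Stromal markers summed to 20784 and 20387 in pools 1 and to 21501 and 21821 in pools 3 (control, then AFO), mesothelial markers to 2818 and 3094 against 2779 and 3265, and fat cell markers to 67053 and 68229 against 63566 and 55302. Skeletal muscle markers summed to 864 and 8687 in pools 1 and to 367 and 542 in pools 3. In control fat Acta1 stood out, at 9.20 log2 units in pool 1 and 6.87 in pool 3. Other muscle markers there were close or reversed, with Ckm at 5.45 and 5.12, Myh4 at 3.48 and 3.13 and Actn3 at 5.81 and 6.19. Epididymis markers (9 of 12 named, 3 past the filter) stood at 1435 in AFO pool 1 against 184 to 227 in the other 5 arrays. The epididymis sum was 191 in control pool 1, where Mest read 9.21. Macrophage markers (8 genes) summed to 9213 to 11176 in control and 8400 to 10377 in AFO fat, and epithelial markers (10 genes) to 422 to 655 and 466 to 893. Their part in the gap was not tested.

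**Figure D4:**
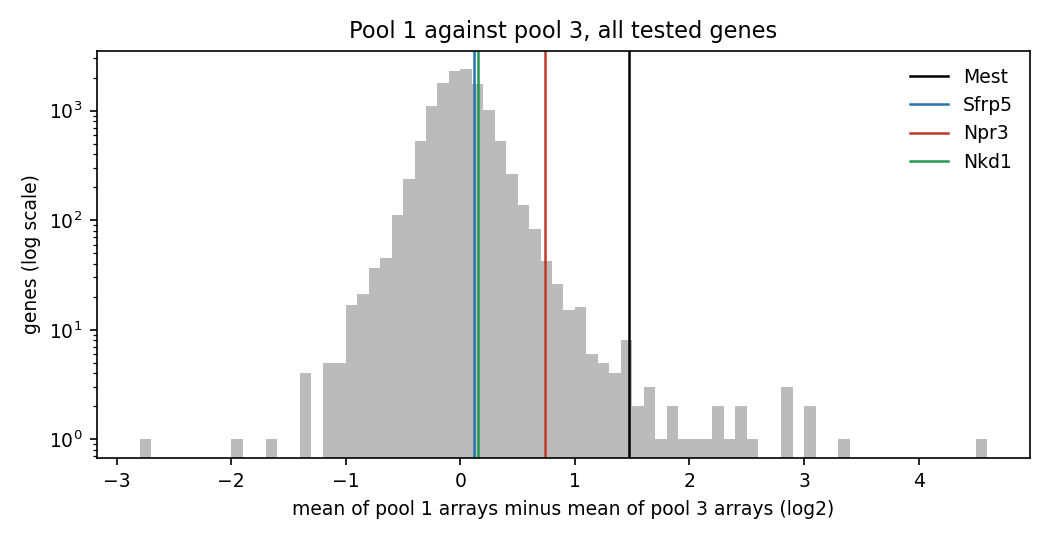
Number of tested genes (log scale) by the mean of the pool 1 arrays minus the mean of the pool 3 arrays in log2 units, with a line for each of the 4 genes. Mest lies at 1.47 and Npr3 at 0.74, in the upper tail, while Sfrp5 at 0.12 and Nkd1 at 0.15 lie near the middle.

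By the mean absolute difference of centred values over the 6 arrays, the tested genes most like Mest were Pkp2, which encodes the desmosome protein plakophilin 2 (0.24 log2 units), Thbs1, which encodes the matrix protein thrombospondin 1 (0.26), and Fads3, a member of the fatty acid desaturase family (0.30). Pkp2 read 8.95, 7.05 and 8.36 in control pools 1, 2 and 3 and 8.97, 6.14 and 7.93 in AFO pools. Most like Npr3 were Ctif, a translation factor (0.16), Hs3st1, a heparan sulfate sulfotransferase (0.20), and Sucnr1, the receptor for succinate (0.20). Most like Sfrp5 were Sh2d2a, a T cell adaptor (0.041), Tmem123, a membrane mucin (0.047), and Dnmt1, the maintenance DNA methyltransferase (0.049). For Nkd1 the nearest were Prp2, Polr3d and Tusc1 (0.022, 0.024 and 0.031), with ranges over the arrays of 0.29, 0.37 and 0.18 beside 0.26 for Nkd1. These genes share libraries and the pool structure with the members.

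Other genes of the pathways in which the members act were then counted, and none passed in the unpaired fit, where the median difference over all tested genes was -0.0153. Among 15 tested Wnt antagonists, relatives in role of Sfrp5 and Nkd1, 8 were higher and 7 lower, with a median of 0.0045. Smallest in unadjusted p were Axin2, a feedback inhibitor induced by Wnt signalling, at 0.49 (SE 0.26), and Apcdd1, a membrane inhibitor, at -0.65 (SE 0.40). Axin2 read 7.34, 6.92 and 6.79 in control and 7.75, 6.996 and 7.77 in AFO pools 1, 2 and 3, higher in AFO in each equal-numbered pair although the groups overlapped. Axin2 did not pass in the unpaired fit or with the block over all arrays. It was called with the block once pool 2 was left out (0.70, SE 0.18, limma adjusted p = 0.0498), a fit that called 1.85% of genes. That fit rested on pools 1 and 3 alone, so its error leaned on the variance shared over genes. Of 27 Wnt ligands and receptors 10 were higher and 17 lower (median -0.04), with the receptor Fzd4 at -0.32 (SE 0.19) and the ligand Wnt9a at -0.35 (SE 0.24). Of 17 transducers 9 were higher and 8 lower (median 0.0072), with Dvl2, a Dishevelled protein of the kind Nkd1 binds, at 0.23 (SE 0.13) and the transcription factor Tcf7l2 at -0.48 (SE 0.28). The Dvl2 groups did not overlap (control 5.69 to 5.73, AFO 5.78 to 6.08). AFO lay above control in every array in 2.0% of all tested genes. Among the 15 antagonists 1, not named here, had AFO below control in every array, as did 1.43% of all tested genes.

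The family of Bmp3 was counted in the same way. Of 10 tested BMP and activin ligands 4 were higher and 6 lower (median -0.11), with Bmp10 at -0.16 (SE 0.13) and Bmp5 at -0.24 (SE 0.19). Of 18 receptors, Smads and Id targets 6 were higher and 12 lower (median -0.05), with the shared mediator Smad4 at 0.31 (SE 0.17) and the target Id1 at -0.35 (SE 0.28). Of 9 antagonists 5 were higher and 4 lower (median 0.019), with follistatin (Fst) at -0.17 (SE 0.30) and Fstl1 at -0.21 (SE 0.42). In all 9 antagonists the mean of the pool 2 arrays lay below that of the other 4, as it did in 7701 of 12513 tested genes (61.5%). The median pool 2 difference was -0.97 in the antagonists and -0.10 over all tested genes.

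Around Npr3, 10 natriuretic peptide genes were tested, of which 4 were higher and 6 lower (median -0.13). Ide and Mme, which encode the insulin-degrading enzyme and neprilysin, peptidases that break down natriuretic peptides, differed by -0.22 (SE 0.23) and 0.30 (SE 0.33). Around Mest, 3 neighbouring genes were tested, and Copg2, a coat protein gene beside Mest, differed by -0.33 (SE 0.21) and Cep41 by 0.06 (SE 0.16). Copg2 read 6.92, 6.82 and 6.74 in control and 6.94, 6.29 and 6.27 in AFO pools 1, 2 and 3. Its pool 1 array exceeded its pool 3 array by little in control fat and by more in AFO fat, whereas Mest had a like gap in each. All 3 tested neighbours had a higher mean in pool 1 than in pool 3, as did 6294 of the 12513 tested genes. Of 11 other imprinted growth genes 3 were higher and 8 lower in AFO fat (median -0.11), with Zdbf2 at 0.14 (SE 0.14) and Igf2r, the receptor that clears insulin-like growth factor 2, at -0.14 (SE 0.13). In all 11 the mean of the pool 2 arrays lay below the mean of the other 4, with a median of -1.10 and with Mest at -1.89, though not every pool 2 array lay below each of the others. As in the antagonists, this count is read against the 61.5% of all tested genes.

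Of 18 other genes tied to fat cell size or pad growth, 5 were higher and 13 lower in AFO fat, with a median of -0.09. Cav2, which encodes the membrane coat protein caveolin 2, read 11.47, 11.19 and 11.42 in control and 11.18, 10.93 and 10.96 in AFO pools 1, 2 and 3. All AFO values lay below the control values, by -0.34 on average (SE 0.13), with an unadjusted p of 0.0412 and a limma adjusted p of 1. Groups lay apart in that direction in 1.43% of all tested genes. Cav1, which encodes its partner caveolin 1, differed by -0.32 (SE 0.31), with groups that overlapped. In the fit with the block and no pool 2 arrays, 1 gene of this list was called, Cidea, which encodes a lipid droplet protein of thermogenic fat, higher by 1.26 (SE 0.24, limma adjusted p = 0.00524); over all arrays, unpaired, it differed by 0.93 (SE 1.90). The fit without pool 2 rested on pools 1 and 3 alone, so its error leaned on the variance shared over genes. Cidea lies outside the rule for named genes and was chosen after its values were seen.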

How the data were processed

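Log2 expression values, deposited by the authors, were made with RMA in Affymetrix Expression Console 1.4, per the submitters' processing notes, and were used as deposited. The genome build behind the probe sets is not given in the sources used here. Of 45101 probe sets, 64 controls, 932 with several symbols and 9160 not listed in the platform annotation were left out. Probe sets with a mean below the 40th percentile of the rest were dropped, which left 20967, and the brightest stood for each of 12513 genes. The genotypes were compared with limma 3.58.1 under R 4.3.3 (empirical Bayes with trend, unpaired, Benjamini-Hochberg), checked on simulated data. Those data were drawn for each gene independently and without pool effects, so the check does not cover the pool structure of these arrays. Marker sums used linear values of each gene's brightest probe set, unfiltered.

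Deviations from genotype means correlated across probe sets at 0.574, 0.775 and 0.476 for equal pool numbers, so the numbers paired by the rule (each over 0.1); with pool 2 apart, the rule cannot separate pools 1 and 3 (0.389 and 0.380 when crossed). What equal numbers share is not stated in the labels. The named genes are the members, the 2 genes of each list with the smallest p, and the 3 genes most like each member. Members, lists and alternatives were chosen with earlier results of these data known.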

Additional observations from a re-analysis of the deposited data

How the results depend on the processing

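No alternative brought a member past the threshold: limma adjusted p ran from 0.896 to 1 for Mest, 0.970 to 1 for Sfrp5, 0.716 to 1 for Npr3 and 0.947 to 1 for Nkd1. Npr3 kept its sign in all 19 alternatives, Mest in 15 of 17, Sfrp5 in 16 of 18 and Nkd1 in 11 of 17. With each array left out in turn, differences ran from -1.04 to 0.45 for Mest, -0.13 to 0.29 for Sfrp5, -0.96 to -0.03 for Npr3 and -0.11 to 0.021 for Nkd1, and 0 to 14 genes were called, the 14 without AFO pool 2. Nkd1 also turned to 0.053 with the mean of its probe sets, to 0.13 for its second probe set and to 0.045 without both pool 2 arrays, unpaired or with the block. Genes called numbered 2 with pool number as a block, 74 without both pool 2 arrays and 232 without them and with the block; the block changed no call of a member. The cause was not tested. The estimation of array weights stopped before it converged (weights from 0.291 to 8.29). Signal over background limits Nkd1, and no filter value for it exists at the 60th percentile.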

Other observations

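Mest was among 10 tested genes (0.0799%) whose pool 1 arrays both exceeded both pool 3 arrays by at least 1 log2 unit. The genes were singled out after their values were seen. The others were Gdpd3, Acta1, Fasn, Lep, Orm1, Fads3, Slc6a13, Lhfpl2 and Trp53inp2. Lep, which encodes leptin, read 8.40, 8.28 and 6.51 in control pools 1, 2 and 3 and 8.06, 7.91 and 6.57 in AFO pools. Fasn, which encodes fatty acid synthase, read 9.61, 11.02 and 8.59 in control and 11.15, 10.50 and 8.50 in AFO pools. Lep was low in pool 3 of each genotype, and Fasn was lowest there but also differed between control pools 1 and 2, whereas Mest was lowest in pool 2. Orm1, which encodes the plasma protein orosomucoid 1, read 10.08, 8.80 and 8.56 in control and 10.23, 8.70 and 8.85 in AFO pools, high in pool 1 alone. None of the 10 passed the comparison of genotypes (limma adjusted p of 1 for each), and pools were not compared by a test.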
